A study of Mus musculus with 25 samples.

Results

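The major histocompatibility complex of the mouse, H2, was examined in RNA from sperm of the cauda epididymis. Its members were taken as every gene symbol that begins with H2-, which gave 43 of the 24358 genes of the table, all with a valid estimate in the 5 conditions. They comprised 31 class I genes, 10 class II genes and 2 other symbols (H2-K2, a pseudogene, and H2-Ke6, also known as Hsd17b8, an enzyme of steroid and fatty acid metabolism that lies in the locus). The class I genes were 3 classical (class Ia) genes and nonclassical (class Ib) genes, with 9 in the Q region, 7 in the T region and 12 in the M region. The class II genes were 5 classical and 5 nonclassical genes.

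Each of the 5 conditions held 5 libraries, from males of 14 weeks. C57.CTL.F1 and FVB.CTL.F1 were C57BL/6J and FVB/N sons of dams given corn oil, the vehicle. C57.D300.F1 and FVB.D300.F1 were sons of dams given bis(2-ethylhexyl)phthalate (DEHP, a plasticizer) in corn oil by mouth, at 300 mg/kg/day on embryonic days 9 to 19. C57.D300.F2 were sons of exposed F1 males and unexposed females, and no F2 control was measured. Both strains are inbred. A value is 1 estimated fragment count per gene and condition, pooled over 5 libraries and not divided by gene length. It was taken as scaled between libraries, as such Cuffdiff counts usually are, since the setting is not given in the sources used here. Every error given with a count is therefore the SD of that count under the Cuffdiff model, with no replicate check, and no p-value could be computed. A run of 5 values gives C57BL/6J first (vehicle F1, exposed F1 and exposed F2) and then FVB/N (vehicle F1 and exposed F1).

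Class I molecules pair a heavy chain with β2-microglobulin and show peptides from inside the cell to CD8 T cells and natural killer cells. Class II molecules are pairs of an α and a β chain (A or E) that show peptides taken up from outside to CD4 T cells. They are made chiefly by dendritic cells, macrophages and B cells, and the epididymis holds mononuclear phagocytes in and under its epithelium. The nonclassical class II pairs DM and DO control peptide loading. C57BL/6J carries H2 haplotype b and FVB/N carries haplotype q, which differ in sequence and in gene content. The reads of both strains were mapped to the C57BL/6J reference, so a lower count from FVB/N reads that did not map and a lower level of RNA cannot be told apart. Nor can a higher level of RNA of a gene in FVB/N be told apart from reads of other FVB/N genes that mapped to it.

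The total count was between 6921688 and 8602900 per condition. By the labels, the 10 libraries of the C57BL/6J F1 conditions were reused, and the other 15 were newly made. DEHP and vehicle were thus compared within 1 set of libraries in each strain, but the F1 conditions of the strains were not, and only C57.D300.F2 shared a set with FVB/N. The 10 male germ cell markers were present in every condition, with at least 65.8 counts each, and their summed count was 86139, 72412, 29273, 7055 and 8433. RNA of genes used as markers of other cells was also present, and its origin was not tested. The 15 liver markers summed to 315503 and 282049 counts in the reused conditions and to between 4382 and 11059 in the newly made ones. The 7 seminal vesicle markers summed to 228552 counts in C57.CTL.F1 and to at most 2137 elsewhere, and the 14 epididymal epithelium markers to 47769 in FVB.D300.F1 and at most 5819 elsewhere. The 21 leukocyte markers summed, without Cd52 (which the epididymal epithelium also expresses), to 7352, 8670, 4182, 2295 and 2655 counts, and no marker of that list was at or under 3 counts in any condition. In such bulk RNA, fewer cells of a type and less RNA per cell cannot be told apart.

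RefSeq promoters (GRCm38.p6, 250 bases before to 50 after the start) matched 31 of the 43 symbols. They were searched on both strands for the letters CCAAT, the core of the Y box of class II promoters that class I promoters share, for GGGATTCCC, the core of the kappa B site of the class I enhancer, and for GTTTCACTT, the core of the interferon response element. None of these matches overlapped another motif in the windows shown. CCAAT was found in 27 of the 31 windows, 19 of 22 class I and 7 of 8 class II, and in 37.4% of all 32851 promoter windows. GTTTCACTT was found in 9 windows, all of class I genes, against 0.399% of all windows, and GGGATTCCC in 4, those of H2-K1, H2-D1, H2-Q6 and H2-Q7, against 0.353%. A match is a description of these letters and not of binding. The 250 bases before the start are shown for the most abundant class Ia genes, for H2-Q10, which followed another pattern, and for a pair of class II genes that parted between the strains, with the motifs in capitals. They lie at chr17:34000348-34000597 (minus strand), chr17:35262844-35263093 (plus), chr17:35469839-35470088 (plus), chr17:34287824-34288073 (minus) and chr17:34305617-34305866 (plus).
H2-K1: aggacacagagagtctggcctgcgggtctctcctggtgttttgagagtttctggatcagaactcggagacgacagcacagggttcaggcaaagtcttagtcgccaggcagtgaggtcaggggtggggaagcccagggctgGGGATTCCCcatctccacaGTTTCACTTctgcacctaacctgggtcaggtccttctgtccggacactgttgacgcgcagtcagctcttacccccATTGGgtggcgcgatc
H2-D1: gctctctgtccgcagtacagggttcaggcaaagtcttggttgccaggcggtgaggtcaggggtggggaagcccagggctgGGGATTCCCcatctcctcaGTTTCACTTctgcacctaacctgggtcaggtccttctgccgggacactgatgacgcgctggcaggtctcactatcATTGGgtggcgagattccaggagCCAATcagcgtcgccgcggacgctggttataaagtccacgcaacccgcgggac
H2-Q10: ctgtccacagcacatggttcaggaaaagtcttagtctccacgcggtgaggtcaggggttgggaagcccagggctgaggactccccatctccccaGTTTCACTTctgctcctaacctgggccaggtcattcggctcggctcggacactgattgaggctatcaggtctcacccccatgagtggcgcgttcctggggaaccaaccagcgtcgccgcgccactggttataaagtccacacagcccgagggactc
H2-Aa: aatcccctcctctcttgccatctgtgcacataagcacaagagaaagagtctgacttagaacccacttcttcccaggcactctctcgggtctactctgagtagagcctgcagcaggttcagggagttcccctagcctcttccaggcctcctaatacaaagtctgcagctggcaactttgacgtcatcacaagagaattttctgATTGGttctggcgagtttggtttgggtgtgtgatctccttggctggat
H2-Eb1: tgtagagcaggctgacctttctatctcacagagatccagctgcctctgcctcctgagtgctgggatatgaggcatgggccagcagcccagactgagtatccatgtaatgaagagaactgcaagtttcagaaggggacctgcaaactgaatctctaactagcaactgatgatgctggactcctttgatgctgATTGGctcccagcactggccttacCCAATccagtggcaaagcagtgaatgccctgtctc
H2-K1 and H2-D1 held all 3 motifs. The H2-Q10 window held the interferon response core but neither of the other motifs, and the class II windows held CCAAT on 1 or both strands.

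Of the 43 members, 14 reached 100 counts in at least 1 condition, 16 reached 10 to under 100, and 13 stayed under 10. The low members were 11 of the 12 M region genes (H2-M1, H2-M2, H2-M5, H2-M9, H2-M11, H2-M10.1, H2-M10.2, H2-M10.3, H2-M10.4, H2-M10.5 and H2-M10.6), with no value above 6.73, H2-L at no more than 2.30, and H2-Q6. H2-Q6 was at 7.90 counts in FVB.D300.F1 and under the limit of 3 counts elsewhere. All members together summed to 11100, 12945, 7646, 8019 and 7547 counts.

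**Figure D1:**
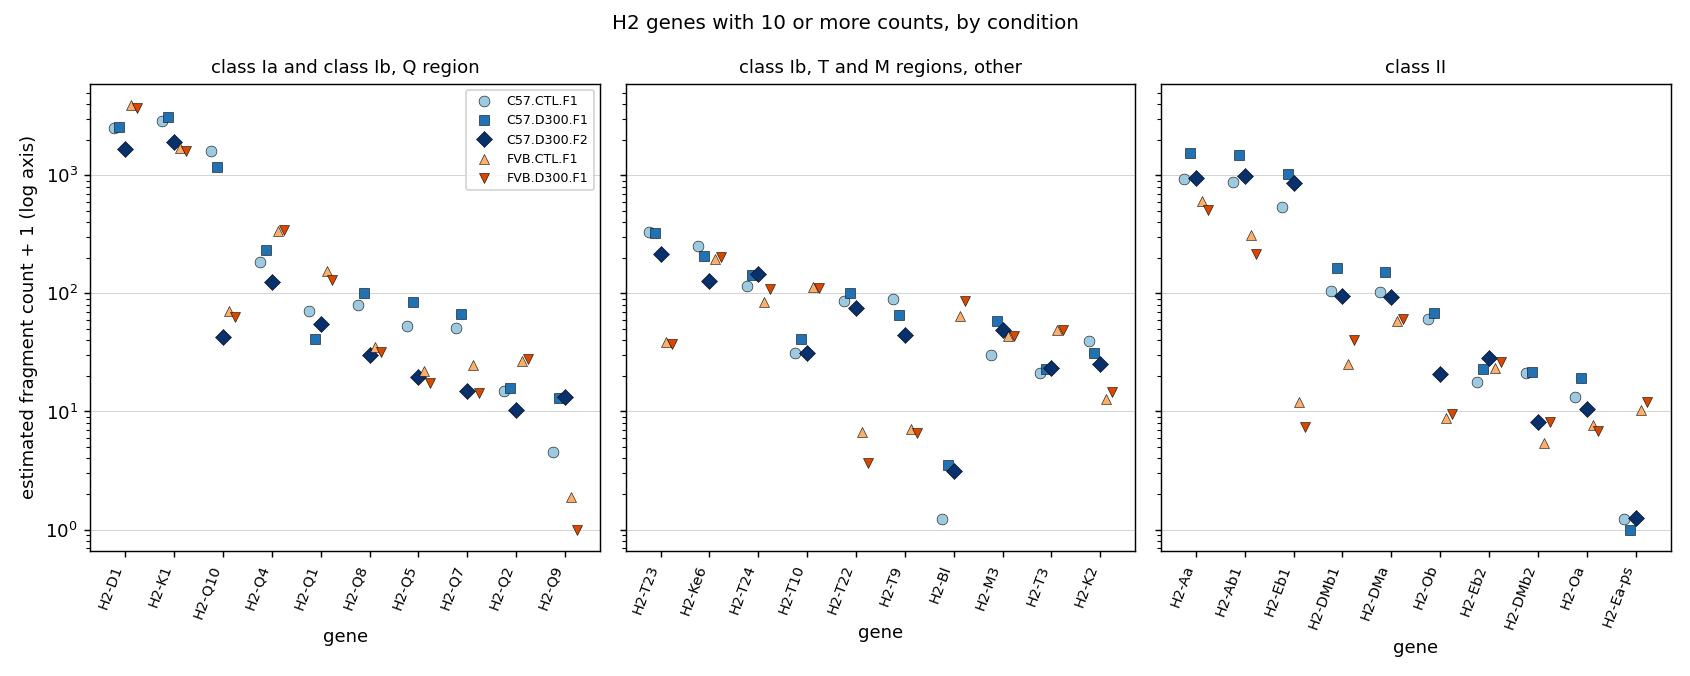
Estimated fragment counts, with 1 added and on a log axis, of the 30 H2 genes that reached 10 counts in at least 1 condition, with 1 point per condition and no error bars. H2-Eb1, H2-T22, H2-T9 and H2-T23 have both FVB/N points far below the 3 C57BL/6J points, while H2-Bl has them far above.

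Class Ia genes encode the heavy chains found on nearly all nucleated cells. H2-K1 (chr17:33996017-34000347) had 2867 ± 879, 3127 ± 956 and 1904 ± 517 counts in C57BL/6J and 1718 ± 467 and 1618 ± 424 in FVB/N. H2-D1 (chr17:35262730-35267499) had 2507 ± 715, 2586 ± 744 and 1661 ± 441 in C57BL/6J and 3952 ± 1287 and 3735 ± 1175 in FVB/N. Both FVB/N values thus lay below those of C57BL/6J for H2-K1 and above them for H2-D1. H2-K1 was also lower in every newly made condition, C57.D300.F2 included, than in both reused ones. Its difference between FVB.CTL.F1 and C57.D300.F2, both newly made, was within its model SD. Divided by exon length (GENCODE M21), the level in the C57BL/6J vehicle condition was 976 counts per kilobase for H2-K1 and 972 for H2-D1, and in the FVB/N one 585 and 1532. The count of H2-D1 divided by that of H2-K1, a ratio within a condition that no scaling changes, was 0.874, 0.827 and 0.872 in C57BL/6J and 2.30 and 2.31 in FVB/N. The ratio was alike within each strain with and without exposure, and in C57BL/6J also between reused and newly made libraries. The sum of the class Ia genes was between 5353 and 5713 counts in the 4 F1 conditions and 3564 in C57.D300.F2. Of all runs of 30 bases in the reference transcripts, 24.01% of those of H2-K1 and 28.1% of those of H2-D1 were also found in transcripts of other genes, so reads from such runs had no single origin.

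Among the classical class II genes, the chains of A had the same order of conditions, with a wider gap between the strains for H2-Ab1. H2-Aa, which encodes the α chain of A (chr17:34282744-34287823), had 936 ± 233, 1559 ± 430 and 940 ± 236 counts in C57BL/6J and 609 ± 144 and 507 ± 123 in FVB/N. H2-Ab1, which encodes its β chain (chr17:34257689-34269419), had 874 ± 212, 1494 ± 413 and 980 ± 246 in C57BL/6J and 310 ± 74.8 and 215 ± 51.4 in FVB/N. Both were highest in C57.D300.F1, and both FVB/N values lay below all C57BL/6J values. The H2-Ab1 count divided by that of H2-Aa was 0.934, 0.958 and 1.04 in C57BL/6J and 0.508 and 0.424 in FVB/N.

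H2-Eb1, which encodes the β chain of E (chr17:34305867-34316674), had the largest fold between the strains among the class II genes above 3 counts in every condition. It had 533 ± 124, 1020 ± 265 and 854 ± 212 counts in C57BL/6J, and 10.99 ± 5.10 and 6.46 ± 3.61 in FVB/N. Per kilobase of exon, H2-Aa, H2-Ab1 and H2-Eb1 stood at 246, 340 and 274 counts in the C57BL/6J vehicle condition and at 160, 121 and 5.65 in the FVB/N one. H2-Eb1 divided by H2-Aa was 0.570, 0.654 and 0.908 in C57BL/6J and 0.0181 and 0.0127 in FVB/N, so the gap between the strains was much wider for H2-Eb1. Of its runs of 30 bases, 1.17% were found in another gene.

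The gene of the α chain of E is listed as H2-Ea-ps and annotated as a polymorphic pseudogene in the reference. It was at 0.220, 0 and 0.257 counts in C57BL/6J and at 9.22 ± 4.70 and 11.1 ± 5.196 in FVB/N. The C57BL/6J values were under the limit of 3 counts, and the FVB/N values were low but above it. FVB/N thus had low counts of both E chains, while C57BL/6J had high counts of the β chain and none above the limit of the α chain. H2-Eb2, another β chain gene, ranged from 16.9 to 27.5 counts and overlapped between strains.

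Each of the 5 nonclassical class II genes was lower in both FVB/N conditions than in every C57BL/6J condition, an order found in 32.4% of all 17701 genes with 10 counts in at least 1 condition. The same 5 genes were also lower in all 3 newly made conditions, C57.D300.F2 included, than in both reused ones, as were 31% of those genes. H2-DMa, the α chain of DM, had 102, 150, 93.01, 57.4 and 59.6 counts. H2-DMb1, a β chain of DM, had 103, 162, 94.3, 24.1 and 39.1. The other β chain, H2-DMb2, ranged from 4.39 to 20.5 counts, and its values in C57.D300.F2 (7.20) and FVB.D300.F1 (7.14) were almost level, so its order turned with the scaling. H2-DMb1 shared 31.96% of its runs of 30 bases with H2-DMb2. The DO pair restrains DM and is best known from B cells. Its α chain, H2-Oa, ranged from 5.79 to 18.1 counts, and its β chain, H2-Ob, was at 59.8 ± 17.8, 67.1 ± 19.7 and 19.9 ± 7.75 in C57BL/6J and 7.88 ± 4.24 and 8.52 ± 4.30 in FVB/N. Ms4a1, Cd79a and Cd79b, B cell genes of the leukocyte list that were singled out after their values were seen, were likewise lower in the 3 newly made conditions. Ms4a1 had 139, 165, 11.8, 8.43 and 7.60 counts. Cd79b had 135, 157, 15.9, 5.81 and 10.1, and Cd79a had 28.6, 37.9, 6.29, 4.31 and 6.02. Their part in the H2-Ob values was not tested.

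H2-Q10 and several neighbours in the Q region separated the sets of libraries rather than the strains. H2-Q10 (chr17:35470089-35474563), whose product is a soluble class I molecule that the liver secretes, had 1620 ± 699 and 1176 ± 459 counts in the reused conditions, but 41.9 ± 15.4 in C57.D300.F2 and 70.4 ± 19.98 and 62.2 ± 18.2 in FVB/N. Its count divided by that of H2-K1 was 0.565 and 0.376 in the reused conditions and 0.0220, 0.0410 and 0.0385 in the others. All 15 liver markers were also lower in each newly made condition than in both reused ones, as were 31% of all 17701 genes. Albumin (Alb), for example, had 83529, 100464, 2559, 524 and 349 counts, but its model SDs in the reused conditions, 343315 and 443754, exceeded the counts. In C57.D300.F2, 10 of the 15 liver markers were below C57.CTL.F1, and 12 below C57.D300.F1, by more than the model SD. Over all genes, 3110 of 17114 and 2696 of 17133 were lower by more than it in these comparisons. The part of the liver markers in the H2-Q10 values was not tested.

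Among the other Q region genes, H2-Q5 had 51.6, 83.3, 18.8, 20.9 and 16.3 counts, H2-Q7 had 49.5, 66.05, 13.8, 23.8 and 13.3, and H2-Q8 ranged from 28.8 to 98.8. These 3 genes were also lower in the newly made conditions than in both reused ones. They are close copies, with 59.03% of the runs of 30 bases of H2-Q5, 40.2% of those of H2-Q7 and 31.4% of those of H2-Q10 present in another gene, so reads may have been split among them. In all, 15 of the 30 members were lower in every newly made condition than in both reused ones, against 31% of the 17701 genes with 10 counts, and 3 were higher, against 24.9%. The 15 were the 5 nonclassical class II genes, H2-Q5, H2-Q7, H2-Q8, H2-Q10, H2-K1, H2-K2, H2-Ke6, H2-T22, H2-T23 and H2-T9.

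**Figure D2:**
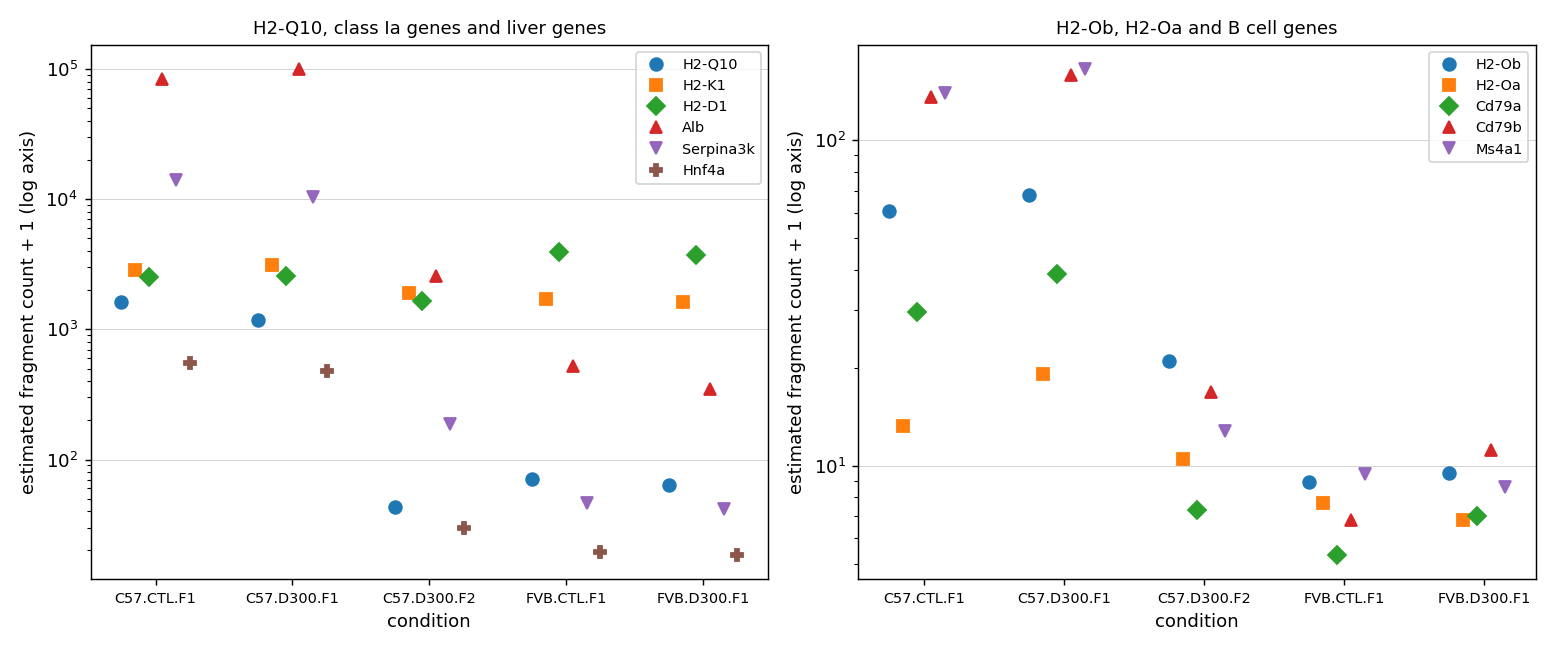
Estimated fragment counts, with 1 added and on a log axis, by condition, for H2-Q10 with the class Ia genes and 3 of the 15 liver markers (left) and for H2-Ob and H2-Oa with the B cell genes Cd79a, Cd79b and Ms4a1 (right), with 1 point per gene and condition. H2-Q10 and the liver markers are high in the reused conditions and low in the other 3, while H2-K1 and H2-D1 stay between 1618 and 3952 counts throughout. Error bars are not drawn.

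H2-Q4 and H2-Q1 showed another order and were higher in FVB/N. H2-Q4, a class Ib gene expressed in many tissues, had 183, 232, 125, 335 and 346 counts. H2-Q1 had 69.7, 40.3, 54.2, 154 and 128. H2-Q2 ranged from 9.35 to 27.1 counts, with both FVB/N values above the rest. H2-Q9 had 3.54, 12.03, 12.3, 0.899 and 0 counts, with a model SD of 18.6 in C57.D300.F1 that exceeded the count itself.

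In the T region the strains parted in both directions. H2-T23 (chr17:36029773-36032855) encodes Qa-1, which presents leader peptides of class Ia molecules to receptors of natural killer cells. It had 332 ± 95.6, 324 ± 96.6 and 214 ± 67.8 counts in C57BL/6J and 37.4 ± 19.9 and 36.3 ± 19.6 in FVB/N. Its count divided by that of H2-D1 was 0.132, 0.125 and 0.129 in C57BL/6J and 0.00946 and 0.00972 in FVB/N, again alike within each strain.

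H2-T10 and H2-T22 encode related molecules that γδ T cells recognise, and 48.2% of the runs of 30 bases of H2-T22 occur in H2-T10. H2-T22 had 85.5 ± 58.8, 99.2 ± 51.5 and 74.1 ± 38.7 counts in C57BL/6J and 5.65 ± 6.51 and 2.65 ± 3.68 in FVB/N. H2-T10 had 30.5, 39.9, 30.4, 112 and 110 counts. Per kilobase of exon, H2-T22 stood at 25.03 and H2-T10 at 8.93 counts in the C57BL/6J vehicle condition, and at 1.65 and 32.8 in the FVB/N one. The copy to which more counts were assigned was thus not the same. The count of H2-T10 divided by that of H2-T22 was 0.357, 0.403 and 0.410 in C57BL/6J and 19.9 in FVB.CTL.F1. In FVB.D300.F1 it was at least 36.7, since H2-T22 was under 3 counts there, and the model SDs of H2-T22 were more than 0.5 times its counts. H2-T9, a further class Ib gene of this region, had 88.7 ± 56.2, 65.2 ± 48.3, 43.7 ± 35.1, 6.10 ± 6.89 and 5.57 ± 4.82 counts. Its shared runs were not measured, as it has no entry in the annotation used.

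H2-Bl, annotated as a polymorphic pseudogene in the C57BL/6J reference (chr17:36080115-36084223), was under 3 counts in C57BL/6J (0.220, 2.55 and 2.13) and had 62.9 ± 18.5 and 85.99 ± 23.4 counts in FVB/N. H2-T24 had 114 ± 64.7, 141 ± 68.9, 144 ± 56.2, 83.5 ± 29.1 and 107 ± 32.6 counts. Both FVB/N values were below the lowest C57BL/6J value, 1 of them narrowly, and within the model SD in each strain comparison. H2-T3, which encodes the thymus leukaemia antigen, ranged from 20 to 48.1 counts, with both FVB/N values above the rest. H2-M3, which presents formylated bacterial peptides, ranged from 29.3 to 57.02 and overlapped between strains. H2-K2 ranged from 11.7 to 38.5, with FVB/N below. H2-Ke6 had 249, 205, 127, 194 and 201 counts, and 76.4% of its runs of 30 bases were also found in other gene models.

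Over the 30 members with 10 counts in at least 1 condition, both FVB/N values lay below all 3 C57BL/6J values for 15 and above all of them for 8. Among all 17701 such genes the shares were 32.4% below and 29.4% above. Class II and class I genes gave different counts, and the difference was not tested. Of 10 class II genes, 8 were below and 1, H2-Ea-ps, was above, while of 18 class I genes, 6 were below and 7 above. Among the 104 other genes that lie between H2-K2 and H2-M2, 24 were below and 47 above. Of the 21 leukocyte markers, 17 were below and 0 above, and all 10 germ cell markers were below. The part of either in the class II values was not tested.

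**Figure D3:**
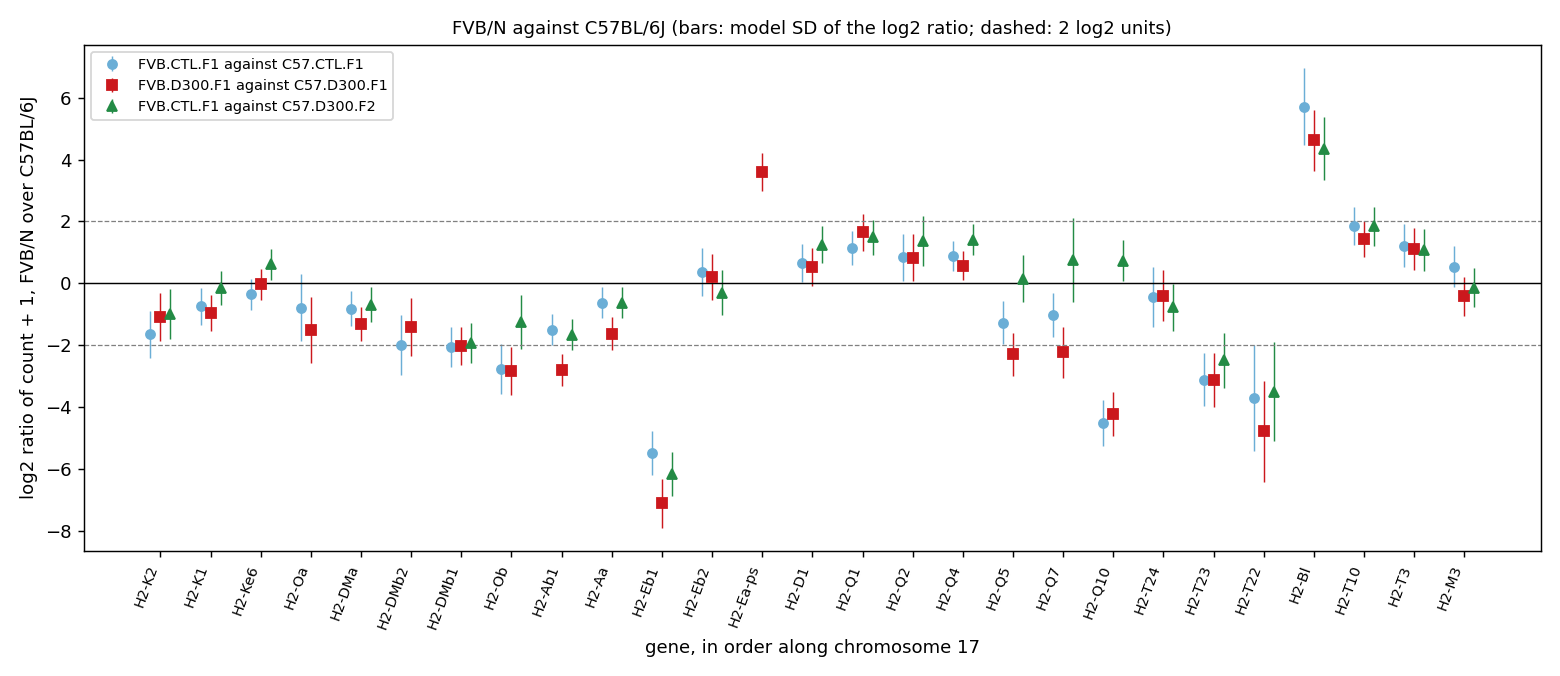
Log2 ratio of counts (1 added) of FVB/N over C57BL/6J in 3 comparisons, for members with a position in the reference, in order along chromosome 17. Bars give the model SD of the log2 ratio, dashed lines 2 log2 units, and a point is absent where neither condition reached 10 counts. H2-Eb1, H2-T23, H2-T22 and H2-Bl lie beyond 2 log2 units in all 3 comparisons, whereas H2-Q10 does so only against the reused C57BL/6J libraries.

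The vehicle conditions of the strains were compared first, FVB.CTL.F1 against C57.CTL.F1, over 28 members with 10 counts in 1 of them. A difference of 2 log2 units was counted. H2-Bl was the 1 member counted as higher, with 1.44% of all 17086 genes, and 7 were lower, with 8.88% of all genes. H2-Bl was at least 20.96-fold higher, against the limit of 3 counts. The lower members were H2-Eb1 (48.5-fold, log2 ratio -5.48 with a model SD of 0.70), H2-Q10 (23.01-fold), H2-T22 (15.1-fold), H2-T9 (14.5-fold), H2-T23 (8.86-fold), H2-Ob (7.59-fold) and H2-DMb1 (4.27-fold). At 1 log2 unit, 4 were higher and 13 lower, with 7.5% and 18.8% of all genes. The median log2 ratio was -1.50 for 9 class II genes, -0.44 for 17 class I genes and -0.03 for all genes. The libraries of these conditions belonged to different sets.

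Within the newly made libraries, FVB.CTL.F1 could be set against C57.D300.F2, although these also differ in exposure of the lineage and in generation. H2-Bl was again the member counted as higher (0.707% of all genes), and 5 of 27 members were lower (2.5%). These were H2-Eb1 (77.7-fold, log2 ratio -6.16 with a model SD of 0.71), H2-T22 (13.1-fold), H2-T9 (7.16-fold), H2-T23 (5.73-fold) and H2-Q9, whose difference was within its model SD. H2-DMb1 (log2 ratio -1.92 with a model SD of 0.65), H2-Ab1 (-1.66 and 0.50) and H2-Ob (-1.24 and 0.87) were lower by less than 2 log2 units. H2-Q10 was not lower in FVB.CTL.F1 here (log2 ratio 0.74 with a model SD of 0.66). By 1 log2 unit or more, 7 were higher and 8 lower, with 4.2% and 11.6% of all genes. The median log2 ratio was -1.24 for 7 class II genes, 0.49 for 18 class I genes and 0 after rounding for all genes.

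In the exposed F1 conditions of the strains, FVB.D300.F1 against C57.D300.F1, 2 of 30 members were higher (2.65% of all genes) and 11 lower (7.67%). H2-Bl was at least 28.7-fold and H2-Ea-ps at least 3.70-fold higher. The bound of H2-Ea-ps is below 2 log2 units, and it was no longer counted when values under 3 counts were set to 3. H2-Eb1 was 158-fold lower (log2 ratio -7.10 with a model SD of 0.79). The other lower members were H2-T22 (at least 33.1-fold), H2-Q10, H2-T9, H2-T23, H2-Ob, H2-Ab1, H2-Q5, H2-Q7, H2-DMb1 and H2-Q9. H2-Ab1 was 6.95-fold lower here and 2.82-fold lower in the vehicle conditions. H2-Aa was 3.08-fold lower here and 1.54-fold lower there. Counted at 1 log2 unit, 5 were higher and 17 lower, with 12% and 19.9% of all genes.

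Exposure to DEHP went with no difference of 2 log2 units in the members that had 10 counts in 1 of the conditions compared. In C57.D300.F1 compared with its vehicle condition, 0 of 28 members were higher and 0 lower, with 0.0357% and 0.256% of all 16825 genes. At 1 log2 unit, 1 (H2-Q9, within its model SD) was higher and 0 lower, with 1.09% and 1.15% of all genes. The smaller differences ran mostly one way, with 22 members above 0 and 6 below and a median log2 ratio of 0.32, against -0.01 over all genes. Of all genes, 8131 lay above 0 and 8694 below. By the model SD of the difference, 7 members were higher (3.45% of all genes), namely H2-Aa, H2-Ab1, H2-Eb1, H2-DMa, H2-DMb1, H2-M3 and H2-Q5, and 1, H2-Q1, was lower (3.13%).

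These 7 included 5 of the class II genes. All 9 class II genes with 10 counts lay above 0, with a median log2 ratio of 0.55, and the 17 class I genes had a median of 0.21. H2-Eb1 had the highest of the class II log2 ratios (0.93 with a model SD of 0.50), followed by H2-Ab1 (0.77 and 0.53), H2-Aa (0.74 and 0.54), H2-DMb1 (0.65 and 0.52) and H2-DMa (0.55 and 0.52). H2-K1 (0.13 and 0.62) and H2-D1 (0.04 and 0.58) were nearly level. Summed over class II, the count was 2658 in the vehicle and 4513 in the exposed condition.

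The partners of class II molecules were recorded beside them. Cd74, the invariant chain that escorts class II chains, had 2508, 4949, 2997, 1355 and 1190 counts. Ciita, the transactivator on which class II genes depend, had 128, 252, 161, 74.9 and 46.3 counts. Both were highest in C57.D300.F1, with both FVB/N values below the rest, as for H2-Aa and H2-Ab1. The 7 class II partners did not share 1 order between the strains. Both FVB/N values lay below all C57BL/6J values for 4 of them (32.4% of all 17701 genes) and above for 3 (29.4%). The 3 were Rfx5, Rfxap and Ifi30, which had 124, 120, 127, 291 and 351 counts. With exposure in C57BL/6J F1, the log2 ratios of Cd74 and Ciita were 0.98 with a model SD of 0.66 and 0.97 with one of 0.50. None of the other 5 partners (Ctss, Ifi30, Rfx5, Rfxap and Rfxank) differed by more than its model SD. In the same comparison 20 of the 21 leukocyte markers lay above 0, as did 8131 of all 16825 genes. The leukocyte median was 0.39, and 8 markers were higher by more than the model SD (3.45% of all genes). Ptprc, which marks all leukocytes, had 306, 490, 249, 116 and 132 counts. Of 9 markers of endothelium and stroma, 7 also lay above 0, with a median of 0.37, and 0 were higher by more than the model SD. The medians of the liver, epididymal epithelium, seminal vesicle and male germ cell markers were below 0. The part of any of these lists in the class II values was not tested.

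**Figure D4:**
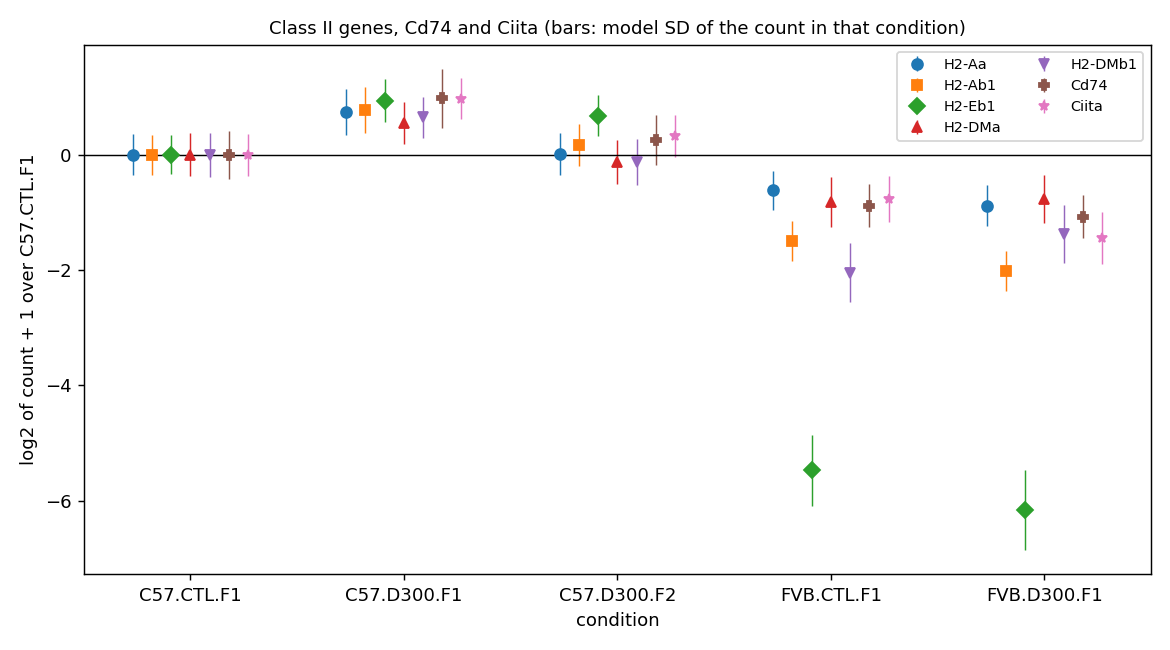
Log2 of the count (1 added) relative to C57.CTL.F1, by condition, for 5 class II genes, Cd74 and Ciita, with bars for the model SD of the count in that condition. All 7 genes are above 0 in C57.D300.F1 and below it in both FVB/N conditions, where H2-Eb1 lies far below the others.

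In FVB/N, 0 of 24 members were higher and 0 lower with exposure, with 0.662% and 0.0182% of all 16471 genes. At 1 log2 unit, 0 were higher and 0 lower, with 2.16% and 0.619% of all genes. The median log2 ratio was -0.02, with 11 members above 0 and 13 below, against 8335 and 8136 of all genes. By the model SD, 0 members were higher (3.76% of all genes) and 1, H2-Ab1, was lower (1.89%), by a log2 ratio -0.52 with a model SD of 0.49. H2-Aa (-0.26 and 0.49), H2-K1 (-0.09 and 0.54), H2-D1 (-0.08 and 0.65) and H2-Q4 (0.04 and 0.47) were within it. Cd74 (-0.19 and 0.53) was within it too, and Ciita (-0.68 and 0.60) was lower by more than it.

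The response of C57BL/6J was then taken from that of FVB/N. The difference was -1.30 log2 units (model SD 0.72) for H2-Ab1, -1.0 (0.72) for H2-Aa, -1.62 (1.06) for H2-Eb1, -0.50 (0.80) for H2-DMa and -0.21 (0.83) for H2-K1. It was below 0 by more than its model SD for 6 of 30 members (2.96% of all genes) and above 0 by more than it for 0 (4.01%). The 6 were H2-Aa, H2-Ab1 and H2-Eb1 of class II and H2-M3 (-0.96, 0.92), H2-Q5 (-1.02, 0.97) and H2-Q7 (-1.20, 1.09) of class I, while H2-DMa and H2-K1 were within it. The median over 30 members was -0.20, against 0.03 over 17551 genes. H2-Q9 was the 1 member past 2 log2 units, as were 1.23% of all genes, and it rested on counts no higher than 12.03.

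In the second generation, the class II genes of C57.D300.F2 differed from C57.CTL.F1 in both directions, by less than 2 log2 units. Compared with C57.CTL.F1, 0 of 28 members were higher (0.584% of all genes) and 1, H2-Q10, was lower (3.61%), at 38.7-fold. Counted at 1 log2 unit, 1 was higher and 7 lower, with 4.1% and 10.2% of all genes. H2-Aa was almost level (log2 ratio 0.01 with a model SD of 0.51), H2-Ab1 differed by 0.17 (0.50) and H2-Eb1 was higher by more than its model SD (0.68 and 0.49). H2-Ob (-1.54 and 0.68) and H2-DMb2 (-1.37 and 0.89) were lower by more than theirs, while H2-DMa (-0.13 and 0.54), H2-DMb1 (-0.13 and 0.55), H2-Oa (-0.33 and 0.90) and H2-Eb2 (0.67 and 0.75) were within it.

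Compared with the exposed F1 condition of the same strain, 0 of 28 members were higher in C57.D300.F2 (0.333%) and 3 were lower (3.3%), H2-Q10 (28.1-fold), H2-Q7 (4.78-fold) and H2-Q5 (4.44-fold). By 1 log2 unit or more, 0 were higher and 6 lower, with 2.69% and 8.35% of all genes. H2-Aa (-0.73 and 0.54) and H2-Ab1 (-0.61 and 0.54) were lower by more than the model SD and H2-Eb1 (-0.26 and 0.52) was not. H2-K1 (-0.72 and 0.59) and H2-D1 (-0.64 and 0.56) were lower too. These comparisons cross the sets of libraries, and with no F2 control the generation, the library set and the exposure of the lineage cannot be told apart.

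The partners of class I molecules were recorded as well. B2m, which encodes β2-microglobulin, had 18686, 19522, 21428, 27630 and 26731 counts, with large model SDs of 10795 and 19173 in the vehicle conditions of C57BL/6J and FVB/N. Of the 15 class I partners, 8 were higher in both FVB/N conditions than in all C57BL/6J conditions (29.4% of all 17701 genes), and 2 were lower (32.4%). Those higher included B2m, the loading factor Tapbp (1928, 2167, 2496, 3509 and 3379) and the chaperones Calr and Pdia3. Nlrc5, the transactivator of class I genes, was 1 of the lower genes, with 149, 251, 148, 68.7 and 82.8 counts. With exposure in C57BL/6J F1 it differed by 0.74 log2 units (model SD 0.52), while the median of the 15 partners was 0.17.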

How the data were processed

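Sperm RNA of the cauda epididymis had been read by all-RNA-seq (TRIZOL, RiboZero, TruSeq small RNA) in 25 libraries. The authors clipped adapters, mapped reads to mm10 with TopHat, set to a gene annotation and the second-strand library type, and quantified genes with Cuffdiff. The labels also name CASAVA 1.8.2. The TopHat and Cuffdiff versions, the Cuffdiff options and the annotation release are not given in the sources used here. The authors deposited, as signal, 1 estimated fragment count for each gene in each condition (taken as scaled between libraries), with its variance under the model of Cuffdiff. All 10 such columns were used. Estimates had failed for 71 genes, none of them an H2 gene, and were treated as missing.

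Log2 ratios were taken over the whole table after adding 1 to each count, for genes with 10 counts in 1 of the 2 conditions, and counted at 2 log2 units. Model SDs of differences add the 2 variances. A value of 3 counts or fewer counted as undetected, and folds against it are lower bounds. These bounds take no account of the model SD of the higher count. Since 1 value per condition pools the libraries, no test, SD between libraries or p-value was possible. The total counts were between 6921688 and 8602900, and the median model coefficient of variation over genes with 10 counts was between 0.275 and 0.280. The strain comparisons share conditions with one another. Coordinates and exon lengths are from GENCODE M21 (GRCm38), for 39 of 43 genes, and promoters from RefSeq.

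Every H2 gene with 100 counts in a condition was named with all values, those from 10 to under 100 with their range, or in full where they differed by 2 log2 units, and the rest by name. Marker and partner lists were textbook lists. The members and lists were chosen with earlier results of these data known. The procedure was tested on simulated counts with large planted changes, which does not bear on mapping, shared reads or the sets of libraries. Alternatives were scaling to equal totals, by median of ratios or by upper quartile, a pseudocount of 0.1 or 10, a minimum of 100 counts or no minimum, values under 3 counts set to 3, a threshold of 1 log2 unit, and a difference also over its model SD. The tools were Python 3.11.15, numpy 2.4.6, pandas 2.3.3 and matplotlib 3.10.9.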

Additional observations from a re-analysis of the deposited data

How the results depend on the processing

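No paired analysis was possible because each condition has 1 pooled value, and leaving out a library could not be run for the same reason. The median log2 ratio of the H2 genes kept its sign in all 7 comparisons under every alternative run. Scaling to equal totals moved the median of all genes by more than 0.1 log2 units in every comparison but FVB.D300.F1 against C57.D300.F1. It became 0.28 for C57.D300.F2 against C57.CTL.F1 and 0.14 for DEHP against vehicle in C57BL/6J F1, where the H2 medians were then -0.14 and 0.47. Scaling by upper quartile also moved it by more than 0.1. It became 0.16 for FVB.CTL.F1 and 0.19 for C57.D300.F2, each against C57.CTL.F1. Against C57.D300.F1, it became 0.14 for C57.D300.F2 and 0.09 for FVB.D300.F1. The scalings left every named log2 ratio within its model SD of the value given, and H2-DMb2 overlapped between strains under 2 of them.

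Counts of members moved by more than 1.5 times as follows, and the cause was not tested beyond what each alternative sets. At 1 log2 unit, 4 members were higher and 13 lower in the vehicle conditions (FVB/N over C57BL/6J), 5 and 17 in the exposed F1 conditions, 7 and 8 for FVB.CTL.F1 over C57.D300.F2, 1 higher with exposure in C57BL/6J F1, 6 lower in C57.D300.F2 than in the exposed F1 condition, and 1 higher and 7 lower than in the vehicle condition. With a minimum of 100 counts, 0 were higher and 4 lower in the vehicle conditions, 0 and 5 in the exposed F1 conditions, 0 and 2 for FVB.CTL.F1 over C57.D300.F2, C57.D300.F2 had 1 lower than the exposed F1 condition, and 8 and 4 members had both FVB/N values below or above. With no minimum, the numbers higher were 1 with exposure in FVB/N, 2 in the vehicle conditions, 4 in the exposed F1 conditions (where the median log2 ratio became -0.10) and 2 for FVB.CTL.F1 over C57.D300.F2, and 14 members had both FVB/N values above. With a pseudocount of 10, 1 was higher and 7 lower in the exposed F1 conditions, 3 were lower for FVB.CTL.F1 over C57.D300.F2 and 1 in C57.D300.F2 than in the exposed F1 condition. With values under 3 counts set to 3, 1 was higher in the exposed F1 conditions. Scaling to equal totals or by upper quartile gave 2 higher in the vehicle conditions. Of 1260 log2 ratios of single members under an alternative, 26 moved by more than their model SD, all of them under another pseudocount or with values under 3 counts set to 3.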
